A study of Moxostoma hubbsi with 18 samples.

Results

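Complement and coagulation proteins were examined as 2 classes of KEGG-style identifiers in the transcriptomes of whole larvae of Moxostoma hubbsi, the copper redhorse, an endangered sucker of North American rivers. The identifiers were taken from a list of 48, namely K03899 to K03914, K03982 to K04004, K01313, K01314, K01315, K01320, K01321, K01330, K01331, K01334 and K01335. Of these, 43 were rows of the series table, among 9645 rows in all. The remaining 5 were not analysed here. The complement class (K01330, K01331, K01334, K01335 and K03986 to K04004) held 21 of the 43 and the coagulation class, which takes in fibrinolysis and protease inhibitors, held 22. The files give no gene name for any identifier, and a reference table of names was not used here. The division into classes therefore rests on blocks of identifier numbers and was not checked against an annotation, and no identifier is given a gene name or a role.

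The complement system is a set of plasma proteins, most of them made in the liver, that cleave and bind one another in a cascade. It marks microbes for uptake, draws in phagocytes and builds pores in target membranes, and it belongs to the innate defence on which fish larvae depend before adaptive immunity matures. Coagulation is a parallel cascade of plasma proteases that ends in a fibrin clot, and it is opposed by protease inhibitors and by the fibrinolytic enzymes that dissolve the clot.

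Larvae were raised in laboratory water, the control, or in river water, which the series title calls contaminated. They were sampled at 14 days after fertilization, and no genotype, strain or dose is given. There were 9 control and 9 river water libraries, and every library pooled 5 whole larvae, so its values mix all organs of those animals. Whether pools of one water shared a tank or parents is not stated, and the p-values measure only the spread between pools, part of which may be technical. Total counts were 15893484 to 20584727 per library in laboratory water and 14868181 to 20095604 in river water. River water replicate 1 had the fewest counts and stood apart from the other libraries in its levels of many identifiers, so the results that follow are also given without it where identifiers are named.

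Of the 43 identifiers, 40 were listed in the files of single samples, and all 40 passed the filter on low counts. The other 3 (K01331, K03986 and K03987, all of the complement class) were found in the series table alone, with at most 9 counts in any library. K01331 had 51 counts over the laboratory water libraries and 27 over the river water libraries, and did not pass the test in an unfiltered fit of the series table (adjusted p = 0.0932, edgeR). K03986 had 13 and 15 counts and K03987 had 53 and 56, in the same order, with adjusted p of 0.833 and 0.896 (edgeR).

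Both classes were represented by many counts, unevenly spread over their members. The mean level in laboratory water was between 2.08 and 542 CPM in the complement class and between 1.49 and 860 CPM in the coagulation class. CPM, the count brought to a common library total after TMM scaling, is not corrected for transcript length, so these values order the identifiers by counts and not by transcript number. K03990 held 33.1% of all complement counts, and the top 5 identifiers together held 77.5%. In the coagulation class K01315 held 26.6% and the top 5 held 80.6%. At the other end, 8 of 18 complement and 9 of 22 coagulation identifiers averaged under 20 CPM in laboratory water.

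The summed level of each class overlapped between the waters. Complement sums were 1588 to 1822 CPM in controls (median 1769) and 1098 to 1862 CPM after river rearing (median 1703). The mean was 1722 ± 90.7 CPM (SD, n = 9) in control libraries against 1638 ± 218 CPM (SD, n = 9) in river water. The lowest river water value was that of replicate 1, and the next lowest was 1562 CPM. Leaving that library out gave 1706 ± 87.1 CPM (SD, n = 8) in river water, which differed from laboratory water by less than the SD of either group. As a share of all counts, without TMM, the river mean was then 0.175% ± 0.0144 (SD, n = 8). The laboratory share was 0.171% ± 0.00534 (SD, n = 9), so the direction of this small difference depended on the scaling. In whole-larva libraries, fewer cells of a type and less RNA per cell cannot be told apart.

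Coagulation sums were 2745 to 3356 CPM in control libraries (median 3051) against 2794 to 3588 CPM in river water (median 3286). The means were 3096 ± 204 CPM and 3231 ± 283 CPM (SD, n = 9 each), closer than the SD of either group on this TMM scale. As a share of all counts, without TMM, the coagulation class held 0.307% ± 0.0133 (SD, n = 9) of control counts against 0.326% ± 0.0421 (SD, n = 9) in river water. That difference exceeded the control SD and was under the river water SD, and without river water replicate 1 the river share was 0.335% ± 0.0363 (SD, n = 8). River water replicate 1, the lowest library of all for complement, was at 2980 CPM here, within the range of the other river water libraries. As a share of all counts, however, it held 0.260%, the lowest of all libraries. No test was run on either sum.

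**Figure D1:**
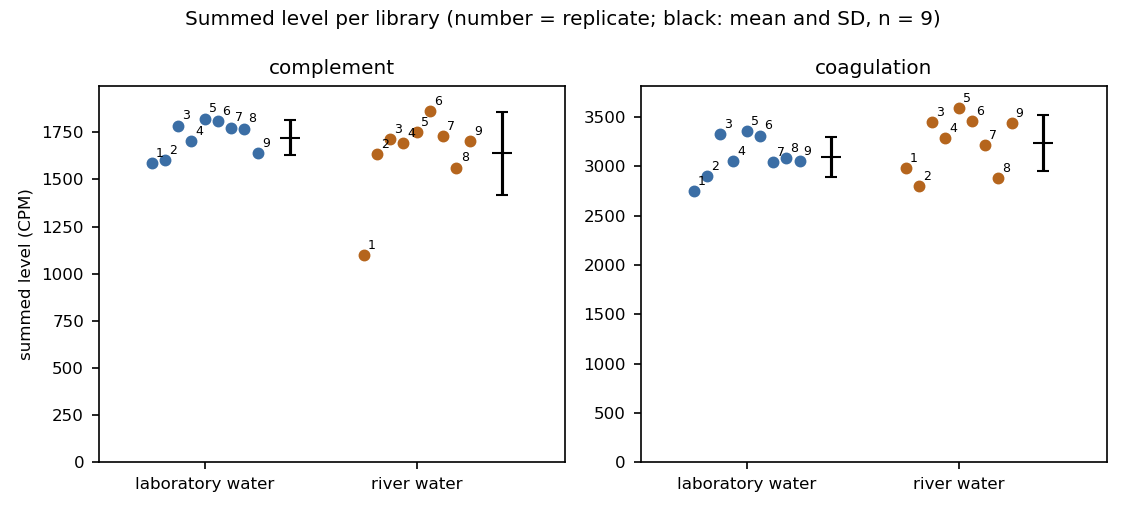
Summed level of the 18 complement and 22 coagulation identifiers in each library (CPM), with the replicate number beside each point and the mean and SD (n = 9) in black. River water replicate 1 lies at 1098 CPM for complement, below all other libraries, and, on this TMM scale, at 2980 CPM for coagulation, among the rest.

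The comparison of river with laboratory water found 1 complement identifier higher and 1 lower, and 0 coagulation identifiers past the threshold, by edgeR's quasi-likelihood F test (threshold 0.05 on p adjusted by Benjamini-Hochberg over all 9008 tested features). These were 11.1% of the 18 complement and 0% of the 22 coagulation identifiers, against 6.27% of all tested features. Over both classes together, the 2 of 40 that passed (5%) were near that background. By direction, the background was 2.13% higher and 4.14% lower. At an unadjusted p under 0.05 (edgeR), 6 of 18 complement and 5 of 22 coagulation identifiers passed, against 23.7% of all features. Of the 22 coagulation identifiers, 0 passed with DESeq2, which called 9.98% of all features, or with limma-voom, which called 6.24%. In the complement class DESeq2 called 4 (K03997, K03988, K04004 and K01330) and limma-voom 2 (K03997 and K01330).

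The changes were small throughout. In the complement class 7 identifiers had a log2 change above 0 and 11 below, with a median of -0.06 and a range from -0.45 to 0.52. In the coagulation class 14 were above 0 and 8 below, with a median of 0.03 and a range from -0.26 to 0.24. Over all tested features the median was 0.01, and 47.0% were below 0. The median absolute log2 change was 0.101 over the 40 identifiers and 0.0858 over all tested features. The 95% interval of the fold change lay within 2-fold in either direction for all 40 identifiers and within 1.5-fold for 35. Of all 9008 tested features, 8916 lay within 2-fold and 8396 within 1.5-fold. Over the 40, the lowest bound was 0.566 times the laboratory level and the highest 1.79 times.

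**Figure D2:**
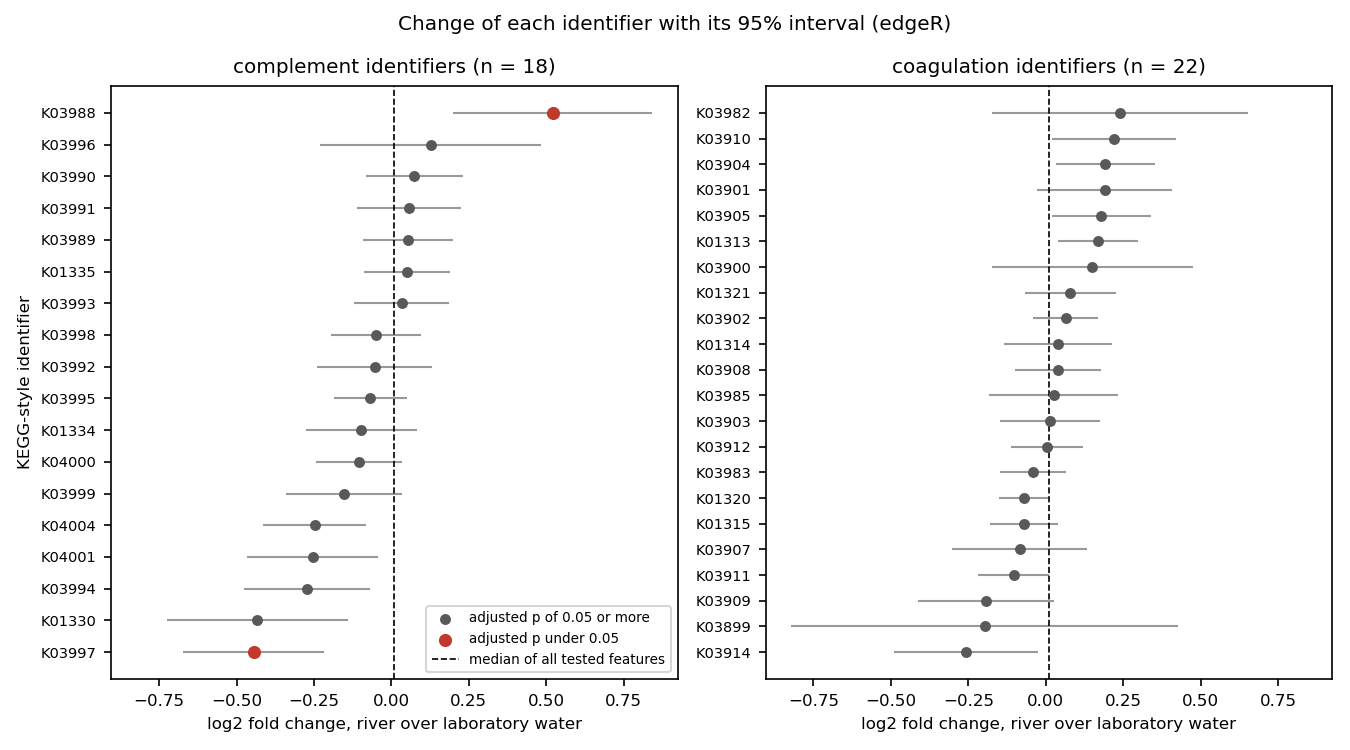
Log2 fold change of river over laboratory water for each identifier (points) with its 95% interval (bars), for 18 complement and 22 coagulation identifiers, 9 libraries per group. K03997 and K03988, in red, are the identifiers past the threshold; the dashed line is the median of all tested features, 0.01.

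K03997 fell in river water. Its level was 33.5 to 38.9 CPM in control libraries (median 36.7) against 12.6 to 32.8 CPM in river water (median 27.3). All 9 river water libraries lay below all 9 laboratory water libraries. The mean was 36.4 ± 1.71 CPM (SD, n = 9) in control libraries against 26.7 ± 5.76 CPM (SD, n = 9) in river water, a log2 change of -0.45 ± 0.11 (SE; adjusted p = 0.0201, edgeR). It alone of the 40 tested identifiers showed no overlap between the groups, where 0.888% of all tested features had none.

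River water replicate 1 had the lowest level of K03997, and the fall was also found without it. The river water mean was then 28.4 ± 2.44 CPM (SD, n = 8), and the log2 change was -0.35 ± 0.05 (SE; adjusted p = 6.2e-05, edgeR). With any other single library left out, the adjusted p was at most 0.0386 (edgeR). Scaling by the library total alone ended the call (adjusted p = 0.0643, log2 change -0.41, edgeR).

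A digit from 1 to 3 in each file name, with 3 libraries of each water per digit, could mark a batch, a tank or a family, although no label explains it. The same digit in both waters is therefore not shown to mean a shared unit. Pools that share a water and a digit may not be independent. Within each such file number K03997 was lower in river water each time, with 3 libraries against 3. The log2 change was -0.65 in number 1, which includes river water replicate 1, -0.31 in number 2 and -0.43 in number 3. The adjusted p was 0.626, 0.157 and 0.000769 (edgeR). In number 1 without river water replicate 1 it was 0.0419, with a log2 change of -0.37.

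K03988 was the identifier that rose, from a low level. It was at 1.60 to 2.47 CPM in control libraries (median 2.16) against 1.47 to 4.15 CPM in river water (median 2.93), from 19 to 75 counts per library. In 7 of 9 river water libraries it lay above the highest laboratory value, in replicate 5 it lay within the laboratory range, and in replicate 1 below it. The mean was 2.08 ± 0.323 CPM (SD, n = 9) in control libraries against 2.96 ± 0.833 CPM (SD, n = 9) in river water, a log2 change of 0.52 ± 0.15 (SE).

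The adjusted p of K03988 was 0.0488 (edgeR), just under the threshold. The call was lost when any library other than river water replicate 1 or 5 was left out (adjusted p up to 0.0904, edgeR), and without replicate 1 it was 0.00425. It was also lost with limma-voom (0.0728), with library-total scaling (0.0609, edgeR) and with the file number as a term (0.0590, edgeR), and it held with DESeq2 (0.0186). The log2 change was 0.35, 0.67 and 0.53 within file numbers 1, 2 and 3, with adjusted p of 0.679, 0.313 and 0.157 (edgeR).

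A further 2 complement identifiers lay close to the threshold. K04004 was at 326 to 413 CPM in control libraries (median 358) against 205 to 345 CPM in river water (median 322). Each of the 9 river water values was under the control mean, though the groups overlapped. Its log2 change was -0.25 ± 0.08 (SE; adjusted p = 0.0645, edgeR), and DESeq2 gave an adjusted p of 0.0353. Within file numbers 1, 2 and 3 the log2 change was -0.29, -0.25 and -0.21, and 0 of the 3 passed the test (lowest adjusted p = 0.0707; 0.0164 over all numbers without river water replicate 1, edgeR).

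K01330 was at 15.6 to 19.8 CPM in control libraries (median 17.97) against 9.46 to 24.2 CPM in river water (median 12.0). In 7 of 9 river water libraries it lay below the lowest laboratory value, whereas replicate 8, at 24.2 CPM, lay above the highest. The log2 change was -0.43 ± 0.14 (SE; adjusted p = 0.0675, edgeR), and the adjusted p was 0.0325 with DESeq2 and 0.0266 with limma-voom. Without river water replicate 8 it was -0.59, with an adjusted p of 0.00135 (edgeR), and without replicate 1 it was -0.42, with an adjusted p of 0.0863 (edgeR). Replicate 8 was singled out by its own K01330 value, so a larger fall without it is no separate evidence. Of 18 fits that each left out 1 library, only that 1 passed (highest adjusted p = 0.120, edgeR). Within file number 2 the log2 change was -0.79 (adjusted p = 0.0154, edgeR), against -0.44 in number 1 and -0.15 in number 3, the number of replicate 8.

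**Figure D3:**
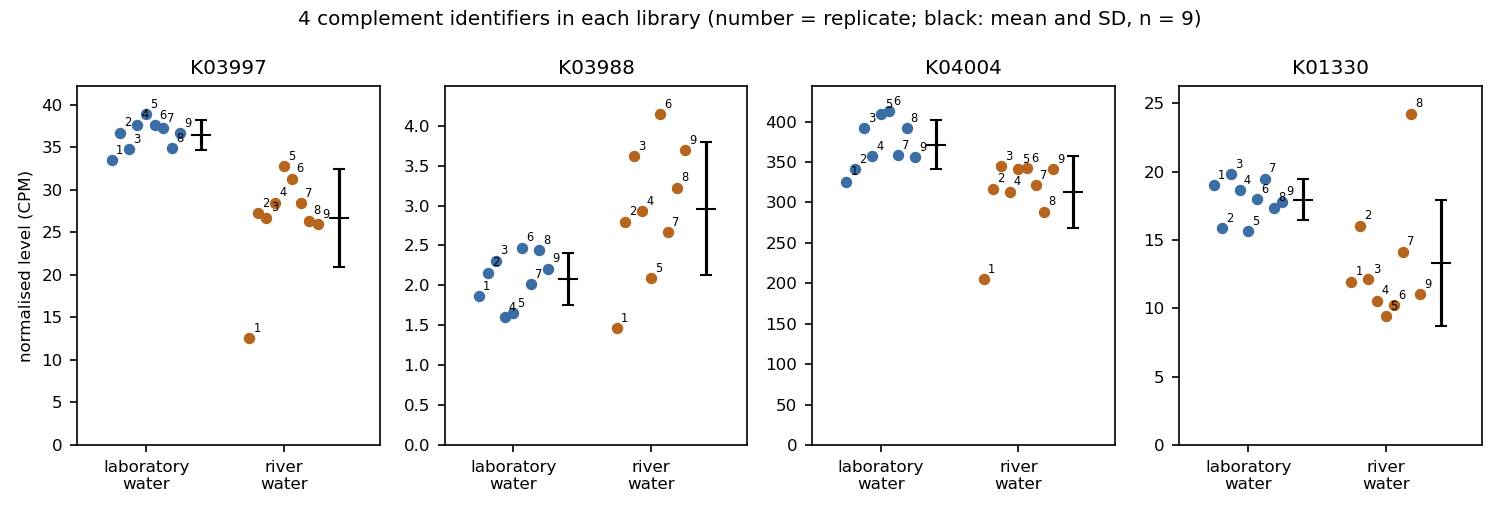
Level of 4 complement identifiers in each library (CPM), with the replicate number beside each point and the mean and SD (n = 9) in black. K03997 does not overlap between the waters, K03988 is higher in most river water libraries, and the low outlying point of K04004 (replicate 1) and the high one of K01330 (replicate 8) are single river water libraries.

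In the coagulation class the smallest adjusted p was that of K01313, at 157 to 203 CPM in control libraries (median 177) against 163 to 224 CPM in river water (median 197). The groups overlapped over most of their range, and 8 of 9 river water libraries were above the laboratory mean. The log2 change was 0.17 ± 0.06 (SE; adjusted p = 0.107, edgeR). With the replicate number as a block the adjusted p was 0.0363 (edgeR), though these numbers are not shown to pair libraries. Leaving out river water replicate 2 gave an adjusted p of 0.0379 (edgeR). Of 18 fits that each left out 1 library, only that 1 passed, and the highest adjusted p was 0.179 (edgeR). Without river water replicate 1 the log2 change was 0.18, at an adjusted p of 0.0587 (edgeR).

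The 2 identifiers with the most coagulation counts were among the rest. K01315 was at 803 to 922 CPM in control libraries against 644 to 889 CPM in river water, with a log2 change of -0.07 ± 0.05 (SE) and an adjusted p of 0.429 (edgeR). Without river water replicate 1 its lowest river water level was 791 CPM, and the log2 change was -0.03 (adjusted p = 0.655, edgeR). K03904 was at 533 to 698 CPM in control libraries against 556 to 819 CPM in river water, with a log2 change of 0.19 ± 0.08 (SE) and an adjusted p of 0.136 (edgeR), or 0.20 and 0.116 without replicate 1. The 22 coagulation identifiers had adjusted p between 0.107 and 0.981 (edgeR).

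Levels varied more among river water than laboratory water libraries. The median coefficient of variation (SD over mean) was 8.24% in laboratory water and 14.8% in river water for complement, and 9.07% and 13.5% for coagulation. Over all tested features it was 7.99% and 11.8%. Without river water replicate 1 the river water medians were 9.48% for complement, 11.7% for coagulation and 8.35% for all features.

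River water replicate 1 had the lowest level of the 9 river water libraries for 13 of 18 complement and 10 of 22 coagulation identifiers, against 35.6% of all tested features. It lay below the lowest laboratory water library for 14 of 18 complement and 11 of 22 coagulation identifiers, against 36.0% of all features. At the other end, replicate 1 had the highest river water level for 2 of the 40 identifiers, against 3128 of 9008 features. River water replicate 6 had the highest river water level for 7 complement and 9 coagulation identifiers, against 23.0% of all features. It had the lowest for 0 of the 40, against 1679 of 9008 features. These shares describe the libraries, and no test of the difference between the classes was run.

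**Figure D4:**
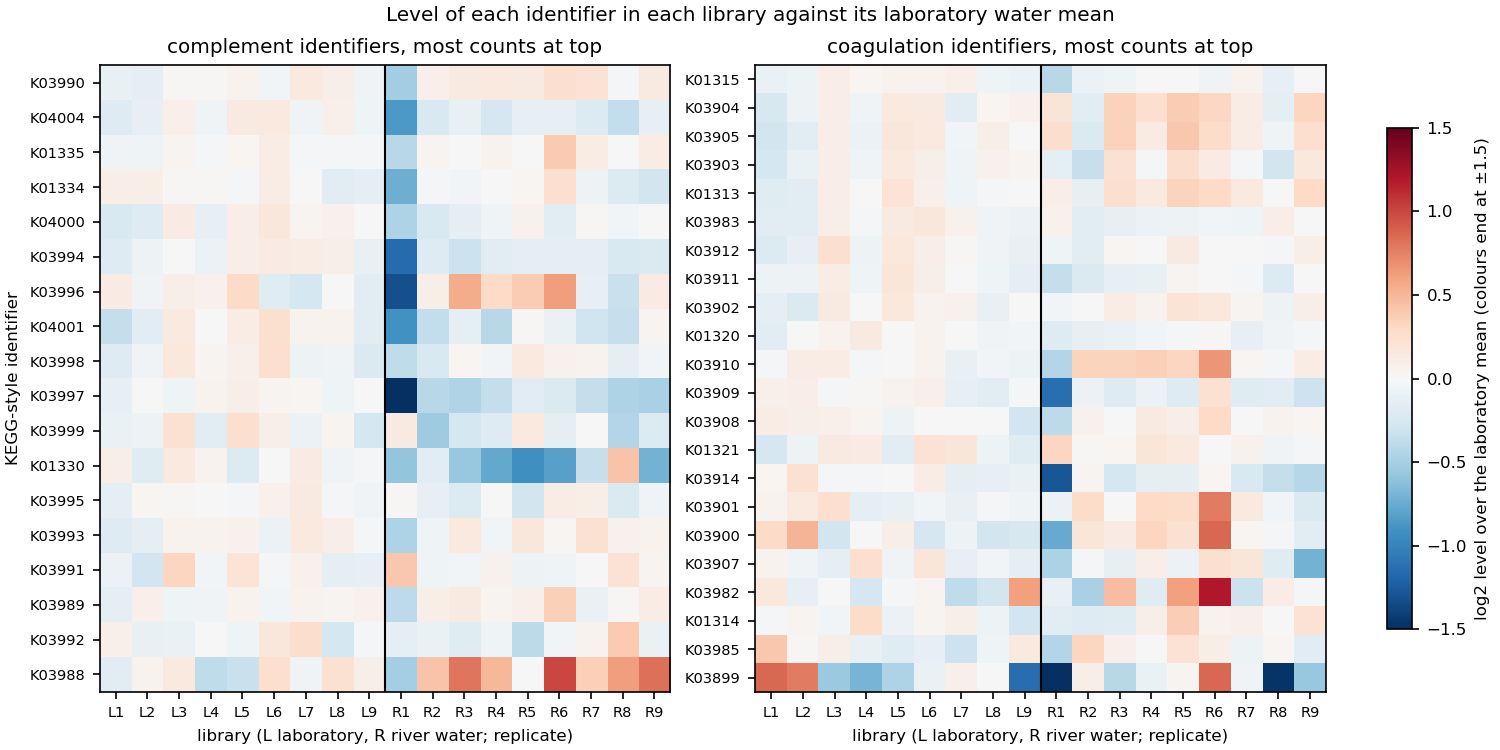
Level of each identifier in each library as log2 over its laboratory water mean, with identifiers in rows by total counts and libraries in columns. River water replicate 1 (R1) is blue for many identifiers, with K03899 at -1.95 (from only 5 counts) and K03997 at -1.54 (163 counts). R6 is red for several, with K03982 at 1.2.

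Without river water replicate 1, 5 of 18 complement identifiers and 1 of 22 coagulation identifiers passed the test (edgeR), against 10.9% of all features. By direction, the background was then 4.14% higher and 6.72% lower. Replicate 1 had been singled out by its levels in these same data. Leaving it out narrowed the spread of river water values, for K03990 from an SD of 78.9 to 32.4 CPM. The calls of this fit are therefore not separate evidence of a change. K03997 and K03988 passed again, and 4 more passed, named here after their values were seen. K04004 was lower by a log2 change of -0.18 ± 0.05 (SE, adjusted p = 0.0164, edgeR). K03994 was lower by -0.19 ± 0.04 (SE, adjusted p = 0.00764, edgeR). With no library left out, the log2 change of K03994 was -0.27 and its adjusted p 0.1001 (edgeR), not past the threshold.

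K03990, with the most complement counts, was higher by 0.14 ± 0.04 (SE, adjusted p = 0.0411, edgeR) in the fit without river water replicate 1. With all libraries its log2 change was 0.07 and its adjusted p 0.575 (edgeR), and leaving out replicates 1 and 6 of river water gave an adjusted p of 0.0757 (edgeR). That last fit called 4 complement and 2 coagulation identifiers, against 11.5% of all features. In the fit that left out river water replicate 1 only, K03910, of the coagulation class, was higher by 0.29 ± 0.07 (SE, adjusted p = 0.0117, edgeR). With all libraries its log2 change was 0.22 and its adjusted p 0.171 (edgeR), not past the threshold. It was at 38.8 to 45.3 CPM in control libraries and at 41.6 to 66.2 CPM in those 8 river water libraries, with replicate 1 at 30.9 CPM, below both. Within file numbers 1, 2 and 3, with all libraries, its log2 change was 0.06, 0.43 and 0.13.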

How the data were processed

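Per the file headers and labels, the deposited counts are raw whole numbers, 1 per identifier and library, over 18 libraries. The submitters' processing notes name edgeR; no aligner, sequence database or counter is given in the sources used here. The sample files (9025 identifiers) were used for the tests, and the series table (9645) for membership and as an alternative; 0 shared values differed, and 0 columns went unused.

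The tests used edgeR 4.0.16 under R 4.3.3: default low-count filter (minimum count 10, minimum total 15), TMM scaling, and a robust quasi-likelihood F test with the water as the only term, adjusted over 9008 features (Benjamini-Hochberg, threshold 0.05). The standard error is the log2 change divided by the square root of F. A run on simulated counts compared the median recovered log2 change with the one put in. The simulation had no outlying library, so it does not bear on calls that depend on river water replicate 1.

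The identifiers and lists were chosen with earlier results of these data known. Identifiers are named by the 2 smallest adjusted p values per direction (K03997, K04004, K03988, K01313); others named were singled out after their values were seen. Further lists of pathway members and liver plasma proteins were not used, because no table names the identifiers. Alternatives were DESeq2 1.42.0, voom from limma 3.58.1, other scalings and filters, a replicate block, the file number, and left-out libraries. Same-numbered libraries had correlated deviations over 0.1 in 4 of 9 pairs, so the replicate number was not taken to pair them.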

Additional observations from a re-analysis of the deposited data

Results flagged for a closer look

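Each group of 9 values was searched for a library whose gap to its nearest neighbour exceeded 0.493 of the range of the group. This was done for the 2 summed levels and 12 of the identifiers named in the text, in each water. That made 28 sets in all, and 8 were singled out. Because several of the 12 were named after their values were seen, this count cannot be set against a chance rate. All 8 were in river water, and 7 were low values of replicate 1, which are not independent of one another. They were the complement sum of 1098 CPM (next lowest 1562), K03997 at 12.6 CPM (next 25.9), K04004 at 205 CPM (next 289), K03990 at 376 CPM (next 537), K03994 at 50.3 CPM (next 89.3), K01315 at 644 CPM (next 791) and K03909 at 15.9 CPM (next 28.2). The remaining set was K01330, at 24.2 CPM in river water replicate 8 (next highest 16.1).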

How the results depend on the processing

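Complement identifiers past the threshold numbered 2, coagulation identifiers 0 and all features 565. With DESeq2 there were 4 complement identifiers and 899 features. A replicate block on the title numbers gave 4 complement identifiers (K04004 and K04001 beside K03997 and K03988), 1 coagulation identifier (K01313) and 356 features; only 4 of 9 same-numbered pairs correlated by more than 0.1 (range -0.437 to 0.392), so the numbers are not shown to pair libraries. With library-total scaling 0 complement identifiers passed, against 535 of all features, 314 of them higher in river water (192 of the 565 with TMM). With river water replicates 1 and 6 left out there were 4 complement identifiers, 2 coagulation identifiers (K03910 higher, K03909 lower, adjusted p = 0.0149, edgeR) and 1041 features. K03909 did not pass with all libraries (adjusted p = 0.269, edgeR) or without river water replicate 1 alone (0.217, edgeR). K04001, called with the replicate block, had adjusted p of 0.137 and 0.139 in those fits (edgeR). Leaving out 1 library gave 1 to 5 complement identifiers, 0 to 1 coagulation identifiers and 377 to 979 features, each highest without river water replicate 1 (for coagulation also without replicate 2). Within file numbers 1, 2 and 3 alone, 0, 1 and 2 complement identifiers passed, with 0, 5 and 276 features (edgeR); number 1 without river water replicate 1, chosen after the data were examined, gave 1 and 99. K01315 turned to a log2 change of 0.0060 within number 3 (adjusted p = 0.978, edgeR). The other settings gave the same class counts, not always of the same identifiers, and the mean summed level of each class in each water moved by less than 1 SD under the 4 settings tried for it. Counts under 100 per library limit K03988.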
